A study of Mus musculus with 6 samples.

Results

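Chromatin accessibility was examined at 8 genes that encode transcription factors of myeloid fate, Spi1, Cebpa, Cebpb, Cebpd, Cebpe, Cebpg, Gfi1 and Gfi1b. A peak belonged to one of these genes when the deposited table named it as the gene with the nearest transcription start site and the peak centre lay within 100000 bp of that site. By this rule 97 of 175929 peaks were taken, with 6 at Spi1, 5 at Cebpa, 18 at Cebpb, 6 at Cebpd, 18 at Cebpe, 15 at Cebpg, 12 at Gfi1 and 17 at Gfi1b. ATAC-seq, in which a transposase inserts adapters into open DNA, had been performed on mouse leukaemia cells driven by AE9a, a shortened AML1/ETO fusion. All cells carried 1 floxed Usp18 allele (Usp18+/f) and UBCER-Cre, a Cre recombinase under a ubiquitin promoter that tamoxifen activates. Recipient mice that had become sick were injected with oil (3 libraries, replicates 1, 2 and 4) or with tamoxifen (3 libraries, replicates 1, 3 and 4), so that tamoxifen was given to remove 1 Usp18 allele while the other was kept in both groups. The loss of the allele was not checked here. On day 3 after the first injection, GFP-positive leukaemia cells that were lineage-negative and c-Kit-positive were sorted out of the spleen. There was no tamoxifen group without Cre or without the floxed allele among the samples analysed here, so an effect of tamoxifen or of active Cre and an effect of the lost allele cannot be told apart.

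PU.1, the product of Spi1, and the C/EBP factors are DNA-binding proteins that open and activate the genes of granulocytes and macrophages. C/EBPα commits progenitors to the granulocyte path, C/EBPε acts late in it, and C/EBPβ serves when granulocytes are made on demand. GFI1 and GFI1B are related repressors with the same zinc finger type, GFI1 in stem cells and granulocytes and GFI1B in erythroid cells and megakaryocytes. AML1/ETO binds RUNX sites and is known to interfere with both PU.1 and C/EBPα.

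The sequences of 7 peaks are shown because the results turn on them, or because they lie at enhancers known from earlier work. Each is the 200 bp around the peak centre, read 5′ to 3′ on the plus strand of the mm10 reference (RefSeq, GRCm38). Capitals mark matches on either strand to the letters AGGAAGT for PU.1, TTGCNNAA for the C/EBP factors, TGTGGT for the RUNX factors, AGATAA for the GATA factors, AAATCNC for the GFI1 factors, TGANTCA for the AP-1 factors and GAAANNGAA for the IRF factors. No set of letters contains another, but matches can overlap.
Spi1 upstream regulatory element, chr2:91082974-91083173: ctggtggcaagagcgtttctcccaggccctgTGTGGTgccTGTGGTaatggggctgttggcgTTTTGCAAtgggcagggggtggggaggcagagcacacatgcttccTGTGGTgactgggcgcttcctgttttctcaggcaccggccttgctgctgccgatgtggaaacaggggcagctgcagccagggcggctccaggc
Cebpa +37 kb enhancer, chr7:35156518-35156717: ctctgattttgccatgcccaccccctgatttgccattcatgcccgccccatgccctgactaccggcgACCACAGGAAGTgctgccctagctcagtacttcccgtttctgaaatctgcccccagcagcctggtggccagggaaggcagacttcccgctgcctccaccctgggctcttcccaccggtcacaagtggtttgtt
Cebpe +6 kb enhancer, chr14:54705831-54706030: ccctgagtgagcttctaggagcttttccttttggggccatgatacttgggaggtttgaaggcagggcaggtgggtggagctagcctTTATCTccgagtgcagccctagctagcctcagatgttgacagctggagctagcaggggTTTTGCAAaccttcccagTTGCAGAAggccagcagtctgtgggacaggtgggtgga
Cebpe -12689 bp peak, chr14:54724764-54724963: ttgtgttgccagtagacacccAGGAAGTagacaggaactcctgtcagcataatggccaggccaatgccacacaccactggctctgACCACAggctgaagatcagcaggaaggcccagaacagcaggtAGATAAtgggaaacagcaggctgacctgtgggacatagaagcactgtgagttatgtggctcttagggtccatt
Gfi1 -375 bp peak, chr5:107726081-107726280: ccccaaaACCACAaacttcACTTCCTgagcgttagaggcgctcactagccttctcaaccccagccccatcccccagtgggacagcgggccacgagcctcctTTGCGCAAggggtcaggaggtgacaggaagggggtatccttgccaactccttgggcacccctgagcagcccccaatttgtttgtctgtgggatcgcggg
Gfi1 -35 kb enhancer, chr5:107759279-107759478: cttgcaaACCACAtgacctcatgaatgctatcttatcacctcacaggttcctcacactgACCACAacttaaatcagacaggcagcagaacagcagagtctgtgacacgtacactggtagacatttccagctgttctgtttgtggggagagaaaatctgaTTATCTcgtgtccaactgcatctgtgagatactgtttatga
Gfi1b +4951 bp peak, chr2:28616932-28617131: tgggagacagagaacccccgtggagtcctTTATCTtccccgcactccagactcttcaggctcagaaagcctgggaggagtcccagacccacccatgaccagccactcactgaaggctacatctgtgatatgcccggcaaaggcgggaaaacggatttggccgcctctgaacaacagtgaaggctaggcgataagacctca

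The Cebpa +37 kb window held a RUNX match that ran into a PU.1 match, and the Spi1 upstream element held 3 RUNX matches and 1 C/EBP match. The Gfi1 -375 bp window held 1 match each to RUNX, PU.1 and C/EBP, and the Cebpe +6 kb window 2 to C/EBP and 1 to GATA. The Gfi1b +4951 bp window held a GATA match alone. Over the 97 peaks, RUNX letters occurred in 22 windows (22.7%), against 18.7% of the 175724 windows of the same length over all peaks. C/EBP letters occurred in 9 (9.28% against 6.45%), PU.1 in 8 (8.25% against 9.70%), GATA in 14 (14.4% against 15.2%), GFI1 in 6 (6.19% against 6.95%), AP-1 in 5 (5.15% against 6.61%) and IRF in 3 (3.09% against 5.13%). A match is a description of the letters in the window, and no factor binding was measured.

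Libraries held 57.4 to 74.7 M tags (M, mega), of which 17.5 to 21.1 M lay in peaks. Across all peaks, log2 tags correlated at 0.974 to 0.975 between oil libraries and at 0.968 between tamoxifen replicates 1 and 3. Tamoxifen replicate 4 stood apart from these, at 0.949 with both, and correlated at 0.960 to 0.964 with the oil libraries. Values with and without it are given below where a call rests on it. The sorted phenotype was checked at marker genes. At the Kit start site the mean was 757 normalised tags after oil and 787 after tamoxifen. At Cd34, a progenitor marker, it was 94.6 after oil and 270 after tamoxifen, with a log2 fold change of 1.50 and a DESeq2 adjusted p of 8.3e-12. Of the other markers with a peak within 3000 bp of their start site, none (0) passed, namely 3 of 5 for T cells, 2 of 4 for B cells, 4 of 4 for erythroid cells, 4 of 4 for megakaryocytes and 1 of 4 for mature neutrophils. The same held for 3 of 4 macrophage markers. By DESeq2, 1 of these 17 marker peaks had an unadjusted p under 0.05, and edgeR passed 0. Cd34 was thus higher after tamoxifen, and any link between it and the results below was not tested. In a bulk sample, a change in each cell and a change in the share of cells with an open site cannot be told apart.

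The genes differed widely in how open their start sites were. On the scale of normalised tags per kb of peak, averaged over all 6 libraries, Cebpg was highest at 2883 ± 122 (SD, n = 6), followed by Cebpb at 1937 ± 118 and Gfi1b at 1812 ± 104. Spi1 lay at 1464 ± 87.3 and Cebpa at 754 ± 99.7. Cebpd (175 ± 24.6), Gfi1 (120.0 ± 23.5) and Cebpe (107 ± 18.7) were the lowest. The Gfi1 value is for the downstream of its start sites, and the peak before the upstream one held 149 tags per kb after oil and 229 after tamoxifen. The Cebpe peak, at -751 bp, does not reach the start site. The ranges over libraries overlapped between Cebpb and Gfi1b, between Cebpd and Gfi1, and between Gfi1 and Cebpe, whereas the other neighbours in this order were separate. For 4 genes the highest peak per kb lay elsewhere. At Cebpe and Gfi1 it was the known +6 kb and -35 kb enhancers, with 1347 and 1400 tags per kb after oil, at Spi1 the peak at +4855 bp with 1634, and at Cebpd the peak at +815 bp with 223.

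**Figure D1:**
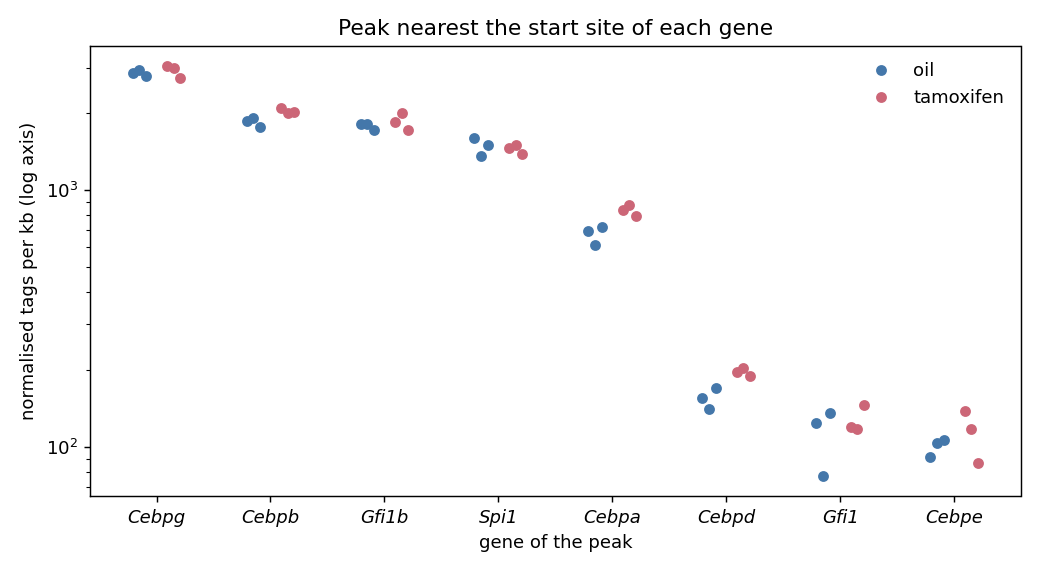
Normalised tags per kb (log axis) in the peak nearest the start site of each gene, 1 point per library, with oil in blue and tamoxifen in red. Cebpg, with a mean of 2883, stands above the rest, and Cebpd, Gfi1 and Cebpe, with means from 107 to 175, lie below Cebpa at 754.

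To ask whether these genes changed in accessibility after tamoxifen, all 175929 peaks were fitted together with DESeq2, and a peak passed at an adjusted p under 0.05. Of the 97 peaks, 3 passed (3.09%), namely 1 at Cebpe and 1 at Gfi1 with more tags and 1 at Gfi1b with fewer. The share over all peaks was 1.39%, made up of 1.22% with more tags and 0.167% with fewer. Only the Cebpe peak also changed by over 2-fold, as did 0.654% of all peaks. It was listed in the tamoxifen group alone, and 2.23% of the peaks so listed passed at over 2-fold, since such a peak enters the table only through the group where it is high. The edgeR quasi-likelihood test passed 4 (4.12%, against 2.92% of all peaks), with 1 each at Cebpe, Gfi1, Gfi1b and Cebpg. An unadjusted p under 0.05 was found at 13 of the 97 (13.4%), 11 with more tags and 2 with fewer, and at 9.02% of all peaks. The libraries of the groups did not overlap at 18 peaks that were higher after tamoxifen (18.6%, against 11.9% of all peaks) and at 8 that were lower (8.25%, against 10%). The median log2 fold change was 0.06 over the 97 peaks and -0.0013 over all peaks. It was above 0 at 57.7% of the 97 and at 49.7% of all peaks. Peaks of a gene come from the same 6 libraries, so a sign that they share is not repeated evidence.

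**Figure D2:**
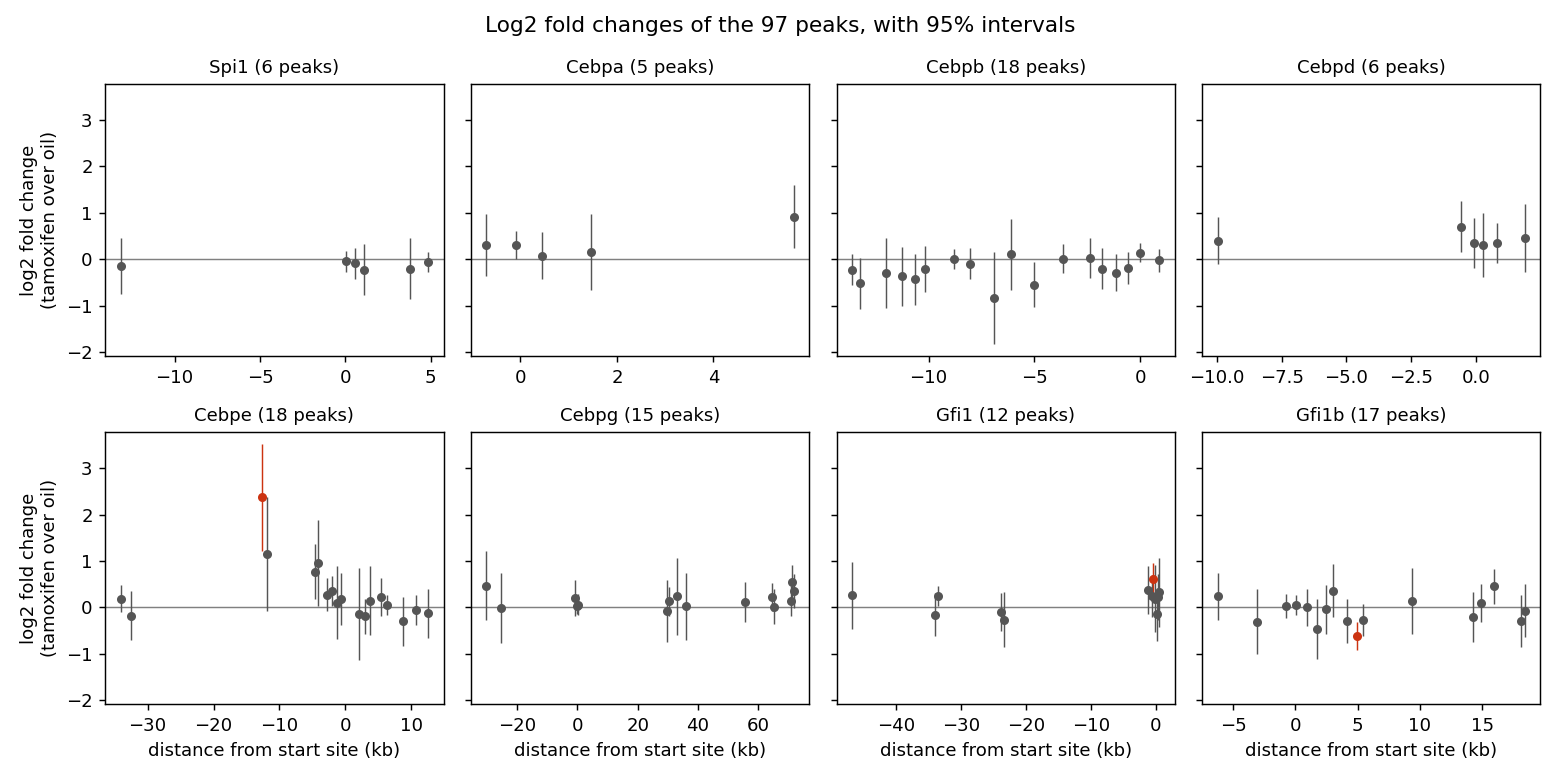
Log2 fold change of tamoxifen over oil for each of the 97 peaks against its distance from the start site in kb, 1 panel per gene, with 95% Wald intervals as bars and the 3 peaks that passed in red. All 6 Spi1 points lie below 0, all 5 Cebpa and all 6 Cebpd points lie above it, and the other genes have points on both sides.

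At Spi1, which encodes PU.1, no peak (0 of 6) passed by DESeq2 or edgeR, 0 had an unadjusted p under 0.05, and the smallest adjusted p was 0.945. The peak at the start site (chr2:91096621-91096829) held 334, 285 and 312 normalised tags in oil replicates 1, 2 and 4 and 305, 313 and 288 in tamoxifen replicates 1, 3 and 4. The groups overlapped, and the log2 fold change was -0.04 (SE 0.12, 95% interval -0.27 to 0.19). The most open Spi1 peak, in an intron at +4855 bp, held 382, 375 and 336 tags after oil and 337, 357 and 359 after tamoxifen. All 6 log2 fold changes were below 0, from -0.22 to -0.04, and the groups overlapped at each of the 6. The upstream regulatory element about 14 kb before the start site is the main Spi1 enhancer in myeloid cells. The table assigned the peak nearest that distance to Slc39a13, so that it is not among the 97. It held 98.7, 99.95 and 89.6 tags after oil and 131, 136 and 108 after tamoxifen. Each tamoxifen library lay above each oil library, and the log2 fold change of 0.38 (SE 0.19) did not pass (adjusted p = 0.515). Another peak within 1000 bp of the 14 kb position, at -13160 bp, is among the 97 and went the other way. It held 45.8, 37.1 and 34.5 tags after oil and 37.2, 34.0 and 35.8 after tamoxifen, with a log2 fold change of -0.15.

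At Cebpa, the start site peak at -95 bp (chr7:35119088-35119309) held 153, 136 and 159 tags after oil and 186, 195 and 176 after tamoxifen. The groups did not overlap, but the log2 fold change of 0.31 (SE 0.15) had an adjusted p of 0.515. The peak at +5664 bp (chr7:35124842-35125073) held 25.4, 24.4 and 32.3 tags after oil and 59.9, 67.4 and 30.3 after tamoxifen. Tamoxifen replicate 4 lay within the oil range there. The log2 fold change of 0.92 (SE 0.34) had an adjusted p of 0.212, and of 0.0107 without tamoxifen replicate 4. All 5 Cebpa log2 fold changes were above 0, from 0.07 to 0.92. None (0) of the 5 passed by DESeq2 or edgeR, and 2 had an unadjusted p under 0.05.

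The +37 kb enhancer drives Cebpa in myeloid progenitors. Its peak (chr7:35156502-35156733, 37324 bp from the Cebpa start site) was annotated as intergenic but overlapped the RefSeq gene Gm35889. The peak was assigned to Slc7a10, so that it too stands outside the 97. It held 62.3, 42.9 and 59.6 tags after oil and 96.2, 130 and 83.3 after tamoxifen. No library of one group reached the range of the other. The log2 fold change was 0.92 (SE 0.24, 95% interval 0.45 to 1.38), with an adjusted p of 0.0153. Without tamoxifen replicate 4 the adjusted p was 0.0025, and without any 1 of the other 5 libraries it was 0.0705 to 0.522.

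Cebpd, an early response member of the family, had the largest relative difference in summed tags of the 8 genes (given below). Its 6 log2 fold changes lay between 0.31 and 0.70, with a median of 0.38, and 4 of the 6 peaks were higher without overlap between groups, as were 11.9% of all peaks. None (0) passed by DESeq2 or edgeR, and 1 had an unadjusted p under 0.05. This was the peak at -577 bp (chr16:15886599-15886819), which held 34.7, 34.1 and 43.0 tags after oil and 67.2, 67.4 and 49.4 after tamoxifen. The tamoxifen libraries all lay above the oil libraries, and the log2 fold change of 0.70 (SE 0.28) had an adjusted p of 0.282.

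Cebpb differed from this in sign at most of its peaks, with 13 of 18 log2 fold changes below 0 and a median of -0.20. No peak (0 of 18) passed by DESeq2 or edgeR, and 1 had an unadjusted p under 0.05. The start site peak was an exception in sign, with 386, 394 and 364 tags after oil and 432, 414 and 416 after tamoxifen (log2 fold change 0.14, SE 0.10, adjusted p = 0.794). The smallest p was at -5012 bp (chr2:167683504-167684303), where the libraries held 84.4, 75.1 and 61.8 tags after oil and 50.3, 42.9 and 57.3 after tamoxifen. All tamoxifen values lay below the oil values. The log2 fold change was -0.54 (SE 0.25), at an adjusted p of 0.446.

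At Cebpe, the peak that passed lay 12689 bp before the start site (chr14:54724732-54724995), in a coding exon of the neighbouring gene Slc7a8, an amino acid transporter. It was in the peak list of the tamoxifen group alone. It held 4.41, 6.34 and 4.03 tags after oil and 28.5, 27.3 and 15.8 after tamoxifen, so that it was nearly closed in each oil library. The log2 fold change was 2.37 (SE 0.59, 95% interval 1.22 to 3.52), with an adjusted p of 0.0075 by DESeq2 and 0.0023 by edgeR. Peaks listed in the tamoxifen group alone passed at 2.33% over the whole table, against 1.50% of those listed in both groups and 0.347% of those listed in the oil group alone, although each list came from the same libraries that are set against each other. With any 1 library other than tamoxifen replicate 4 left out, DESeq2 gave this peak no adjusted p because of its low tags, and without tamoxifen replicate 4 it was 0.0019. Of the 18 peaks assigned to Slc7a8 itself, 16 had log2 fold changes above 0 and 2 below, with a median of 0.46. An unadjusted p under 0.05 by DESeq2 was found at 9 of them (50%, against 9.02% of all peaks), all with more tags. Whether the peak at -12689 bp acts on Cebpe or on Slc7a8 was not tested. The known +6 kb enhancer, the most open Cebpe peak, held 336, 323 and 339 tags after oil and 349, 345 and 342 after tamoxifen. The groups did not overlap, yet the log2 fold change was 0.06 (SE 0.11, 95% interval -0.16 to 0.27).

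Cebpg encodes a family member that lacks an activation domain and pairs with the others. Its start site was the most open of all, at 575, 588 and 557 tags after oil and 609, 601 and 547 after tamoxifen, with a log2 fold change of 0.03 (SE 0.09). At +71121 bp, in an intron of Pepd (chr7:34985320-34985570), the libraries held 94.9, 84.3 and 90.9 tags after oil and 118, 145 and 132 after tamoxifen. The groups were separate, and the log2 fold change of 0.55 (SE 0.19) had an adjusted p of 0.136 by DESeq2 and 0.0356 by edgeR.

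Gfi1 has a pair of start sites in the table. The peak that passed (chr5:107725834-107726526) lay 375 bp before the upstream one. It held 103, 111 and 94.97 tags after oil and 164, 175 and 137 after tamoxifen. Every tamoxifen library was above every oil library, with a log2 fold change of 0.62 (SE 0.18, 95% interval 0.27 to 0.96) and an adjusted p of 0.0367. Scaling by the tags in peaks gave 0.0502, leaving out tamoxifen replicate 4 gave 0.0063, and leaving out any 1 of the other libraries gave 0.147 to 0.512. At the downstream start site the peak at -90 bp held 28.1, 17.6 and 30.9 tags after oil and 27.1, 26.7 and 33.1 after tamoxifen, and the groups overlapped. The -35 kb enhancer, in an intron of Evi5 and 35035 bp before the downstream start site, held 316, 311 and 284 tags after oil and 362, 375 and 340 after tamoxifen. It was higher in all 3 tamoxifen libraries, but the log2 fold change of 0.24 (SE 0.11) did not pass (adjusted p = 0.452). Another Gfi1 peak within 1000 bp of the -35 kb position (chr5:107759703-107759910) held 65.1, 71.7 and 75.7 tags after oil. After tamoxifen that peak held 62.8, 76.3 and 53.1, with overlap between groups and a log2 fold change of -0.16.

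Gfi1b, by contrast, had the only peak of the 97 that passed with fewer tags. It lay in the first intron at +4951 bp (chr2:28616830-28617232) and held 236, 217 and 231 tags after oil and 127, 140 and 178 after tamoxifen. Each tamoxifen library was below each oil library. The log2 fold change was -0.62 (SE 0.15, 95% interval -0.92 to -0.32), with an adjusted p of 0.0087. It was 0.00020 without tamoxifen replicate 4 and 0.0732 to 0.199 without any 1 of the other libraries. The Gfi1b start site held 398, 396 and 374 tags after oil and 404, 436 and 374 after tamoxifen, with a log2 fold change of 0.06 (SE 0.11). At the +16 kb enhancer the libraries held 101, 94.6 and 125 tags after oil and 117, 169 and 156 after tamoxifen. The groups overlapped there, and the log2 fold change of 0.46 (SE 0.19) had an adjusted p of 0.340.

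**Figure D3:**
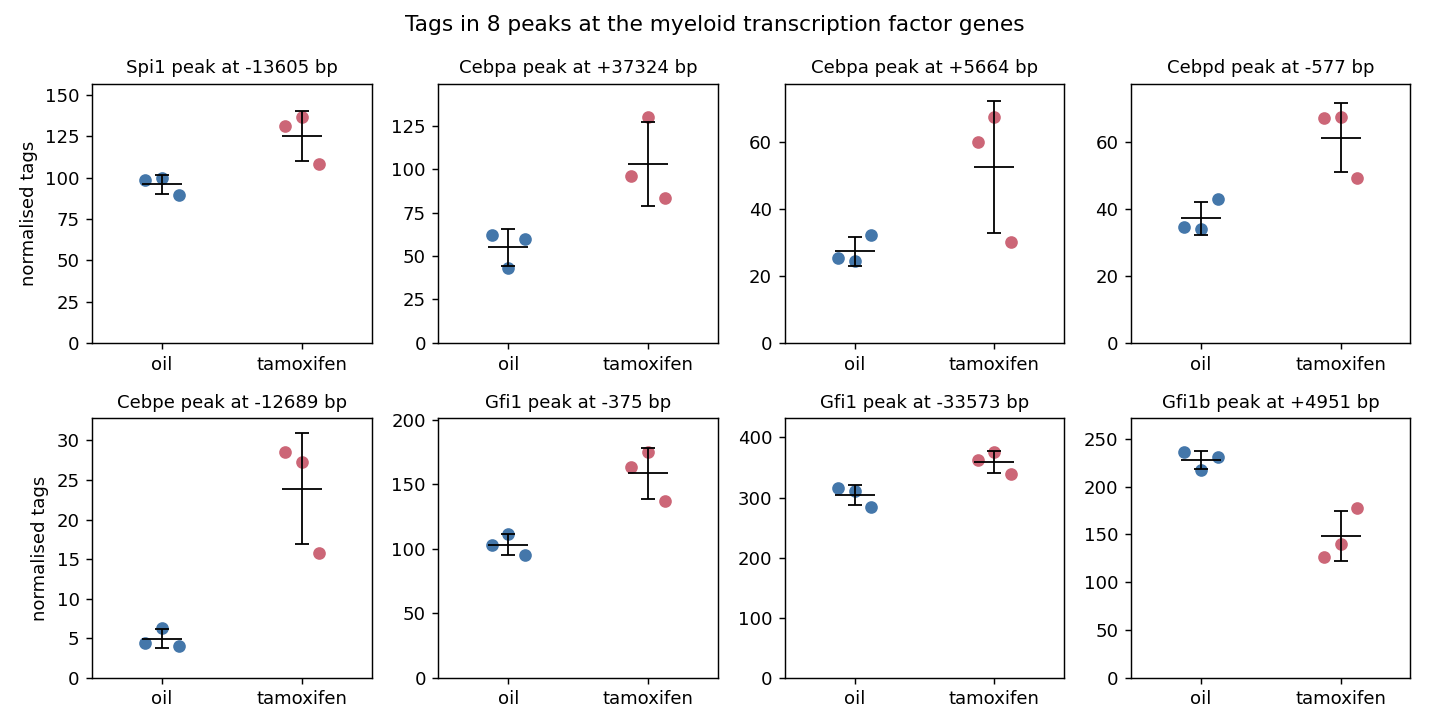
Normalised tags in 8 peaks, 1 point per library, with the mean and SD (n = 3) of each group in black and a vertical axis from 0 in each panel. The Gfi1b peak falls from a mean of 228 to 148, and the groups overlap only at the Cebpa +5664 bp peak. The peaks shown are those that passed, the smallest p at Cebpa and Cebpd, and known enhancers, so the choice favours separate groups. Groups did not overlap at 26.8% of the 97 peaks and at 21.9% of all peaks.

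Tags were then summed over all peaks of a gene in each library and compared by an exact two-sided permutation test, whose smallest possible p with 3 against 3 libraries is 0.1. The sum was higher in each tamoxifen library than in each oil library at Cebpd (242 ± 16.5 after oil, 325 ± 12.1 after tamoxifen, SD, n = 3), Cebpa (274 ± 21.4 and 348 ± 33.8), Gfi1 (897 ± 20.7 and 1034 ± 72.9) and Cebpg (1992 ± 15.3 and 2181 ± 54.4). It was lower in each at Cebpb (2257 ± 38.4 and 2134 ± 15.3). These 5 genes had an exact permutation p of 0.1, or 0.16 after adjustment over the 8 genes. Such sums were not computed for other genes, so the share of all genes that separate in this way is not known. Among single peaks of the whole series, 21.9% had no overlap between groups. The groups overlapped at Cebpe (1446 ± 85.1 and 1592 ± 53.1, exact p = 0.2), Spi1 (942 ± 52.8 and 897 ± 19.4, exact p = 0.3) and Gfi1b (1741 ± 62.7 and 1683 ± 104, exact p = 0.4).

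**Figure D4:**
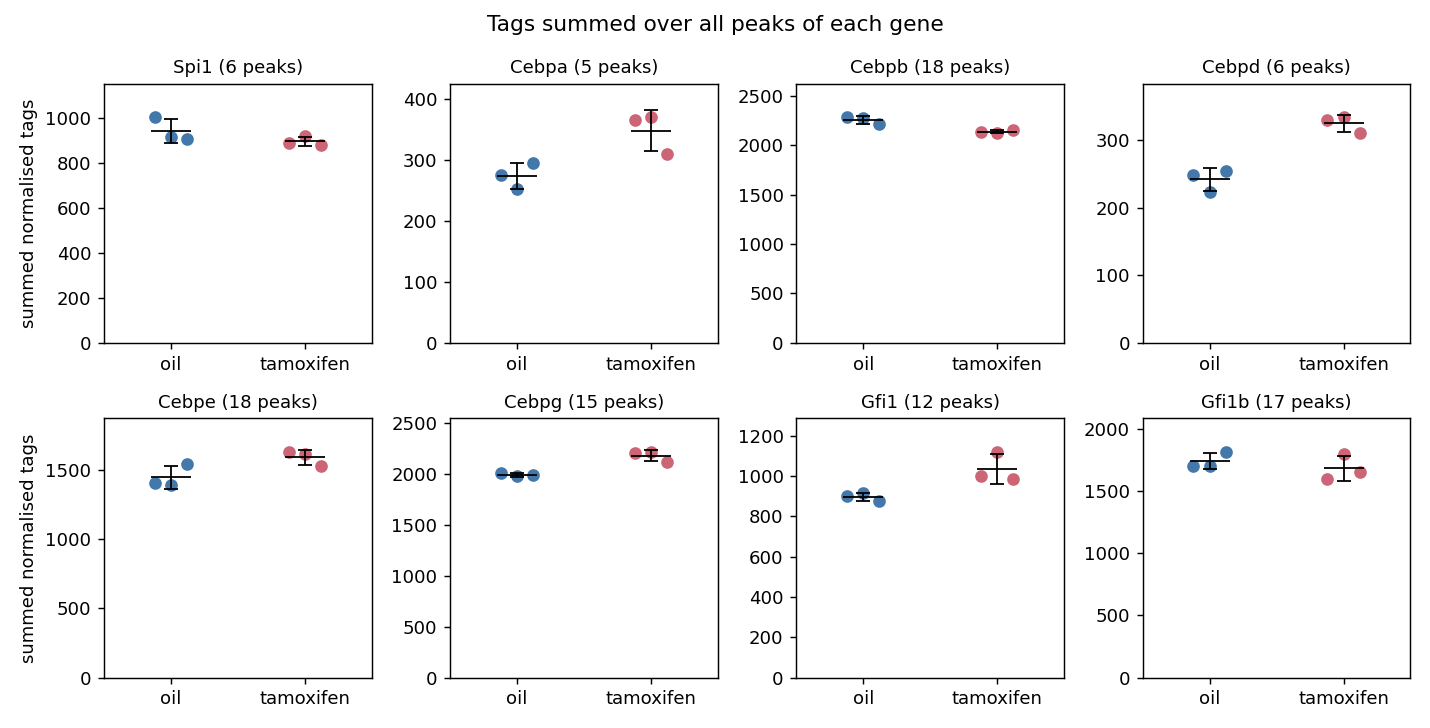
Normalised tags summed over all peaks of each gene, 1 point per library, with the mean and SD (n = 3) in black. Cebpd and Cebpa lie higher after tamoxifen by 34.2% and 27.0% of the oil mean, Cebpb lies lower, and Spi1, Cebpe and Gfi1b overlap.

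Because a nearest-gene rule leaves out enhancers that stand closer to another gene, all 345 peaks within 100000 bp of a start site of the 8 genes were also read. Of these, 14 passed (4.06%, against 1.39% of all peaks), and Gfi1b +4951 bp was the only one with fewer tags. At Cebpb, 4 peaks assigned to A530013C23Rik passed, between 53.7 and 86.6 kb downstream of the Cebpb start site, with log2 fold changes of 0.70 to 1.06. At Cebpe, 3 peaks of Slc7a8 passed, with log2 fold changes of 0.85 at its start site, 1.12 at +640 bp and 0.61 at +3839 bp. A pair of Ralgds peaks passed near Gfi1b (1.03 and 0.65), and 1 Rapsn peak near Spi1 (0.96). Near Cebpa the +37 kb enhancer was the only one, and near Cebpd and Cebpg none (0) passed by DESeq2, where 1 and 3 peaks had an unadjusted p under 0.05 and edgeR passed 0 and 1. Which gene these peaks act on was not measured.

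Genes that work with or below these factors were read in the same way. Of 115 peaks at 15 of 17 PU.1 and C/EBP target genes, 1 passed, at the start site of Il6ra, an interleukin receptor subunit (279 ± 10.9 after oil and 378 ± 62.5 after tamoxifen, log2 fold change 0.44, adjusted p = 0.0495). The median over the list was 0.03. Of 672 peaks at 16 partner and antagonist factors, 4 passed with more tags and 1 with fewer, with a median of 0.05. All 5 lay at Runx1, which encodes the factor that AE9a derives from, with log2 fold changes of 0.56 to 0.95 and of -0.78. Il6ra and Runx1 are named although none of these peaks exceeded 2-fold, and were chosen after their values were seen. Of 168 peaks at 12 GFI1 corepressor and C/EBP regulator genes, none (0) passed by DESeq2, where 17 had an unadjusted p under 0.05 and edgeR passed 7, and the median was -0.03. By DESeq2, 0.870%, 0.744% and 0% of the 3 lists passed, against 1.39% of all peaks. By edgeR the shares were 3.48%, 1.79% and 4.17%, against 2.92% of all peaks. At an unadjusted p under 0.05 they were 13.9%, 9.38% and 10.1%, against 9.02% of all peaks.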

How the data were processed

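ATAC-seq of 3 oil and 3 tamoxifen libraries was analysed. The authors mapped reads to mm10 with Bowtie2 and called, merged and annotated peaks with HOMER, and the deposited table holds raw tags per merged peak, an estimated count in steps of 0.5 with at most 3 tags per position (per the file header) and no normalisation. Peak lists were made from the libraries compared. Tool versions are not given in the sources used here.

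Tags were rounded to whole numbers and fitted over all 175929 peaks with DESeq2 1.42.0 (R 4.3.3, median-of-ratios size factors, Wald test, Benjamini-Hochberg adjustment). Normalised tags are deposited tags divided by the size factor. edgeR 4.0.16 (robust quasi-likelihood), other size factors, filters, limits and left-out libraries were alternatives. The study fitted distal peaks alone, which is one of the alternatives.

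For each gene the peak nearest the start site, those that passed, the one with the smallest p and that with most tags were named. For a known enhancer it was the peak nearest its stated distance, if within 1000 bp. Members and lists were chosen with earlier results of these data known. The labels do not say whether libraries came from separate mice. In the study, the RNA methods name a number of mice equal to the libraries in a group, and tie a set of these to paired ATAC-seq. Its replicate statement for ATAC-seq gives fewer replicates. Here n therefore counts libraries, and p-values set group differences against the variation between libraries, which may be technical. No peak ended past a chromosome of the reference (0). An item on the marker lists is not reported here by name.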

Additional observations from a re-analysis of the deposited data

How the results depend on the processing

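The 3 peaks that passed, and the 1 that also exceeded 2-fold, gave counts within 1.5 times of these under every other scaling, filter, test and threshold tried on all 6 libraries. With 1 library left out, 0 to 4 of the 97 passed and 0 to 2 exceeded 2-fold, with 4 and 2 without tamoxifen replicate 4 and 0 without any other. Up to 23 of the 97 then had no adjusted p. Reading every peak near a start site, an alternative chosen after seeing the data, gave 14 of 345 (4.06%, against 1.39% of all peaks). Over all peaks, 2448 passed, 5136 by edgeR, 6529 without tamoxifen replicate 4 and 629 to 1078 without any other library. The cause was not tested.

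The PU.1 and C/EBP target count of 1 was 0 with tags in peaks as scale, 2 with mapped tags, 4 by edgeR, 3 with promoter and distal peaks fitted separately, 5 at an adjusted p under 0.1 and 0 to 5 with a library left out. The partner count of 5 was 12 by edgeR, 3 within 50000 bp and 1 to 22 with a library left out. The corepressor count of 0 was 7 by edgeR, 2 at an adjusted p under 0.1 and 0 to 5 with a library left out. Of the counts with a library left out, the highest in each list came without tamoxifen replicate 4.

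Replicate numbers 1 and 4 occur in both groups. Deviations from the group means correlated at -0.044 and 0.0508 between libraries of the same number. These values gave no sign that the numbers pair the samples, but so few libraries cannot exclude it. With a replicate block on those 4 libraries, 0 of the 97 peaks passed and 0 exceeded 2-fold, the target and partner lists gave 0 and 0, the corepressor list 0, and all peaks 52. In that fit 20 of the 97 had no adjusted p, and the log2 fold changes were -0.64 at Gfi1b +4951 bp and 0.59 at Gfi1 -375 bp.

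Among single peaks, the Spi1 start site had a log2 fold change of -0.04, which was -0.0987 to 0.0149 with a library left out and above 0 only without oil replicate 1. No summed difference changed sign. The exact permutation p rose from 0.1 to 0.3 at Cebpg with the limit of 50000 bp and at Cebpb with mapped tags as scale. It fell to 0.1 at Spi1 with tags in peaks as scale and at Cebpe with mapped tags. At 45 to 57 tags in the median peak, counting error is among the limits on what can be detected, and its share of the spread was not measured.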
